A study of Mus musculus with 5 samples.

Results

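The MHC class I antigen presentation genes comprise 10 genes that were chosen by name from the 32793 rows of each expression table: B2m, H2-K1, H2-D1, Tap1, Tap2, Tapbp, Psmb8, Psmb9, Psmb10 and Nlrc5. All 10 were present in both tables. They were followed through 5 bulk RNA-seq libraries of whole mouse kidney at embryonic day 15.5. The 2 NICD_mut libraries came from embryos that carried the Six2TGC/+ driver, a transgene that makes Cre recombinase in the progenitors of the nephron, together with the RosaN1ICD∆PEST allele, from which Cre releases an activated Notch1 without its PEST domain. The 3 NICD_wt libraries came from littermates that had the RosaN1ICD∆PEST allele and lacked Cre. Driver and activated Notch1 were always present together, so their effects cannot be told apart, and the strain background was not given in the sources used here. Whether the libraries are from different animals is not stated in the labels; the p-values reflect only how far these samples spread, and part of that spread may be technical.

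Class I molecules show short peptides from inside the cell to CD8 T cells. The immunoproteasome, a form of the proteasome with exchanged catalytic subunits, cuts proteins into peptides. The TAP transporter carries the peptides into the endoplasmic reticulum, tapasin helps to load them, and a heavy chain paired with beta-2-microglobulin holds them at the cell surface. Nlrc5 is a transactivator of class I genes and of some other genes of this pathway, and interferon raises nearly all of the members. Class I transcripts are usually scarce in embryonic tissue, and endothelial cells and macrophages are among the cells that make more of them.

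Promoter stretches of the genes of the class I molecule are printed first, because they hold letters that the class I regulators are known to bind. RefSeq promoter windows (GRCm38.p6, 250 bases before to 50 after each start) were found for 8 of the 10 members; Tap2 and Nlrc5 had none. The X2 and Y boxes, which the enhanceosome that recruits Nlrc5 occupies, were searched as TGACGNNNNNNNNNNNNNNNNNNNNATTGG on both strands, and both this spacing and the form of the other motifs were settled after these windows had been read. This string was found in H2-K1, H2-D1 and B2m, in 3 of 8 members, which follows in part from how its spacing was set, and in 0.0944% of all 32851 windows. H2-M3, a class I gene outside the members, was the only other one among the 14 further class I heavy chain and B2m partner genes with a window. A window without this string may hold these boxes in another form. The stretches below run 5′ to 3′ from X2 to Y, with the searched letters in capitals. They lie at chr17:34000359-34000388 (minus strand), chr17:35262993-35263022 (plus), chr2:122147609-122147638 (plus) and chr17:37270188-37270217 (plus). The H2-D1 stretch falls inside the first exon of a longer GENCODE transcript of that gene.
H2-K1: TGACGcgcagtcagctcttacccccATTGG
H2-D1: TGACGcgctggcaggtctcactatcATTGG
B2m: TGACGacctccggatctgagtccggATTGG
H2-M3: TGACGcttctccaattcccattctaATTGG

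The wider upstream stretches of H2-K1 and B2m are shown because these genes carry different interferon-type letters upstream of the same X2 and Y arrangement. In H2-K1 (chr17:34000358-34000463, minus strand) the capitals mark, in order, an NF-kappaB site searched as GGGGATTCC, the class I interferon element searched as GTTTCACTT, and the X2 and Y letters. In B2m (chr2:122147543-122147676, plus strand) they mark an interferon-stimulated response element searched as GAAANNGAA and the X2 and Y letters.
H2-K1: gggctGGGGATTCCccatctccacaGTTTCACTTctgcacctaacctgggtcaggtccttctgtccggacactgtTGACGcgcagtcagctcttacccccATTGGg
B2m: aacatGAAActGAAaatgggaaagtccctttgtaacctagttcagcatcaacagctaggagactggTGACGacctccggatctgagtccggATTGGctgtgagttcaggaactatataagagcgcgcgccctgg
These motifs were searched on both strands, and no marked motif overlaps another in these stretches. The NF-kappaB letters were found in H2-K1 and H2-D1 among the members and in 0.25% of all windows. The class I interferon letters were found in the same 2 members, in 7 of the 14 further class I and partner genes, and in 0.399% of windows. The response element letters were found in B2m alone of the members and in 8.56% of windows. A match is a description of these letters and not a measured binding site.

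Libraries held 17361823 to 21356447 counts. Notch1, whose count includes the transgene, had 6132 and 6570 counts in NICD_mut and 2089 to 3026 in NICD_wt, and Six2 had 7 and 6 against 2411 to 3015. All 14 kidney markers examined had counts in every NICD_wt library; in NICD_mut 9 of them fell, 4 rose and 1 did not pass, at a median of -1.79 log2. Calb1, a marker of the distal tubule and collecting duct, had 6 and 6 counts in NICD_mut and 2805 to 3422 in NICD_wt, and Umod, a marker of the thick ascending limb, had 8 and 5 against 130 to 266. The proximal tubule transporter gene Slc34a1 rose by 1.0 log2 (SE 0.08). Of the 5 libraries, NICD_mut 1 stood apart in skeletal muscle transcripts, at 3298 CPM over 8 genes against 4.60 to 139 CPM in the other 4 libraries. The library next to it in this measure was NICD_wt 1, and results are also given without these libraries where a call changed. Of all called genes 48.1% were higher, and 62.1% by limma on log2(TPM + 1), where the median of all genes was at 0.11 log2; the members that rose lay above that shift on either scale.

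Of the 9 members that passed the filter on low counts, 7 rose in NICD_mut, 0 fell and 2 did not pass the test. These counts come from the edgeR quasi-likelihood test on counts, with Benjamini-Hochberg adjustment over all genes and a threshold of 0.05. Of all 15885 genes tested, 23% were called higher, 24.8% lower and 47.7% either way. The median log2 fold change of the 9 was 0.97, against 0.01 over all genes tested. In 8 of the 9 the CPM of the groups did not overlap, all 8 with NICD_mut higher; over all genes tested 67.2% did not overlap, 32.9% with NICD_mut higher and 34.2% with NICD_mut lower. Nlrc5 had too few counts to be tested. The call of 3 members, H2-K1, B2m and Tapbp, held under each of the 16 alternative fits, and the other calls rested on individual libraries as given below. Without NICD_mut 1, which leaves 1 NICD_mut library, H2-D1, Tap1, Tap2 and Psmb8 lost their call. Nlrc5 passed the filter there only through NICD_mut 2, the library where it was highest, and is not counted among the 7 members that rose.

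**Figure D1:**
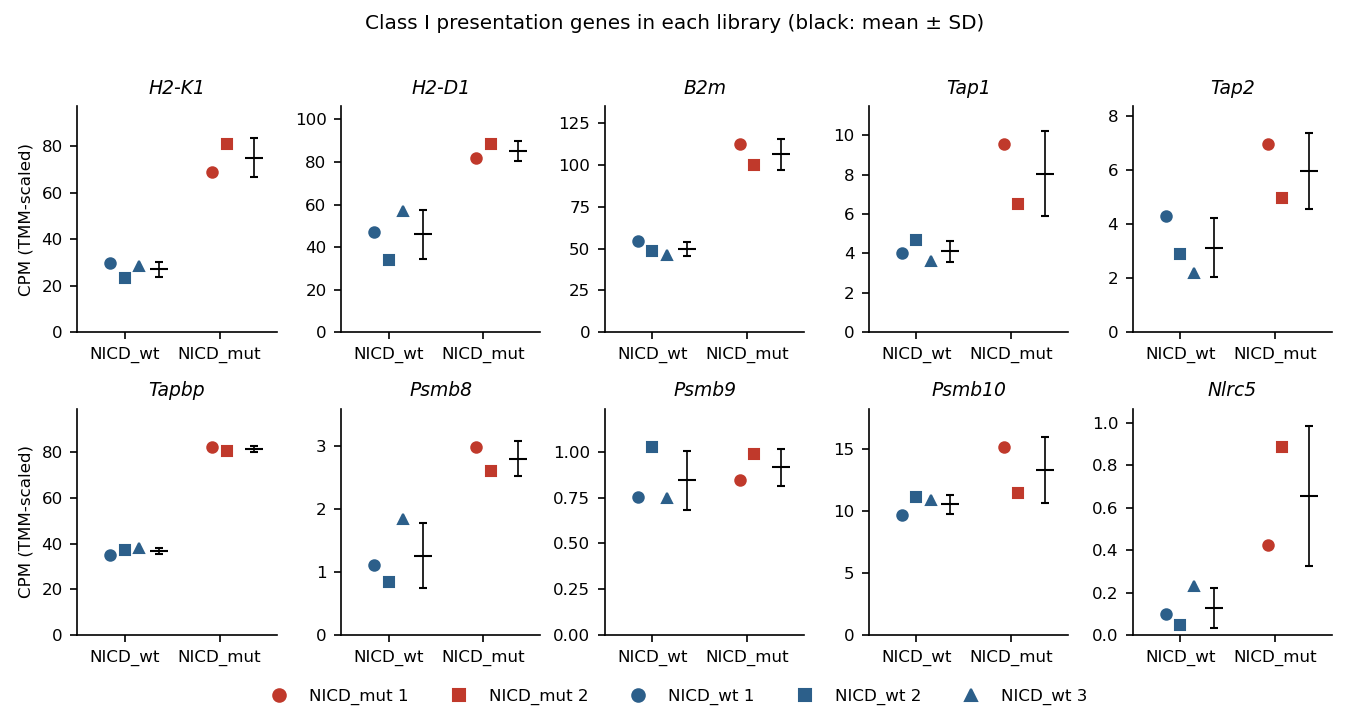
CPM (counts scaled to library size with TMM factors) of the 10 members in each library, by group, with black marks for the mean ± SD. H2-K1, B2m and Tapbp sit in narrow, well separated groups, while the Psmb9 values of the groups overlap.

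The genes of the class I molecule itself rose. H2-K1, a classical heavy chain (mm10 chr17:33996017-34000347, minus strand), was at 69.2 and 81.1 CPM (counts scaled to library size) in NICD_mut 1 and 2 and at 29.7, 23.3 and 28.4 CPM in NICD_wt 1, 2 and 3. Both NICD_mut libraries exceeded all NICD_wt libraries by a wide margin. H2-K1 rose by 1.47 log2 (SE 0.12; edgeR adjusted p = 3.13e-05). B2m, the light chain shared by all class I molecules (chr2:122147686-122153083, plus strand), was at 112 and 99.7 CPM against 54.2, 48.4 and 46.4 CPM. Its groups did not overlap either, and it rose by 1.09 log2 (SE 0.09; edgeR adjusted p = 2.05e-05).

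H2-D1, the other classical heavy chain in this list (chr17:35262730-35267499, plus strand), was at 81.9 and 88.5 CPM in NICD_mut and at 47.0, 33.9 and 57.0 CPM in NICD_wt. The NICD_wt libraries were spread more widely than for H2-K1, but all stayed below NICD_mut. H2-D1 rose by 0.89 log2 (SE 0.23; edgeR adjusted p = 0.035). It did not pass without NICD_mut 1, NICD_mut 2 or NICD_wt 1 or with no filter, at 0.83 to 0.95 log2. In the fits that kept both NICD_mut libraries, the edgeR adjusted p was 0.092 without NICD_wt 1 and 0.0817 with no filter. The fits without NICD_mut 1 or NICD_mut 2 leave a lone NICD_mut library, and for H2-D1 only their effect sizes are given. Without NICD_mut 1 and NICD_wt 1 together H2-D1 did not pass either. RSEM shares reads among near-identical heavy chain genes by estimation, so values of single heavy chains are uncertain. With all listed heavy chain genes summed into 1 row, that row rose by 0.93 log2 (SE 0.16; edgeR adjusted p = 0.00568). The sum kept 0.98 and 0.83 log2 without NICD_mut 1 or 2, which leaves a lone NICD_mut library assumed to vary like the others, and then did not pass (edgeR adjusted p = 0.0926 and 0.123). The summed H2-K1 and H2-D1 TPM (a level scaled for transcript length) were 63.6 and 73.6% of B2m TPM in NICD_mut and 62.4, 56.3 and 80.6% in NICD_wt. These percentages overlapped between the groups (difference 0.06 log2, exact two-sided permutation test, p = 0.8, 0.8 adjusted over 4 ratios).

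Among other class I heavy chains and proteins that pair with B2m, 6 of 12 tested genes rose, 0 fell and 6 did not pass, at a median of 0.62 log2. Fcgrt, the heavy chain of the neonatal Fc receptor, was at 120 and 125 CPM against 47.9, 52.5 and 44.9 CPM. The groups were far apart, and it rose by 1.34 log2 (SE 0.07; edgeR adjusted p = 3.81e-06). The nonclassical heavy chain H2-T23 rose by 1.47 log2 (SE 0.20), Hfe, the B2m partner that senses iron status, by 1.39 (SE 0.19), and the lipid-presenting Cd1d1 by 0.94 (SE 0.21).

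Some heavy chain genes differed between libraries of the same group. The labels give no MHC haplotype, so whether the embryos shared one, and whether it was that of mm10, was not tested; counts of H2-K1, H2-D1, H2-K2, the other heavy chains and their sum are as assigned to the mm10 genes. H2-Q7 had 248 counts in NICD_wt 1 and 33 to 50 in each of the other 4 libraries, and H2-Q6 had 110 counts in NICD_wt 1 and 4 to 15 elsewhere. Both were thus high in a single NICD_wt library, and neither passed (log2 -1.66, SE 1.0, and -2.10, SE 2.0). Without NICD_wt 1 the H2-Q7 difference was -0.42. H2-T22 had 62 counts in NICD_wt 3 and 221 to 308 elsewhere, while its close copy H2-T10 had 130 counts in NICD_wt 3 and 68 to 115 elsewhere. These 2 genes were therefore low and high, respectively, in the same library, and neither passed the test.

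**Figure D2:**
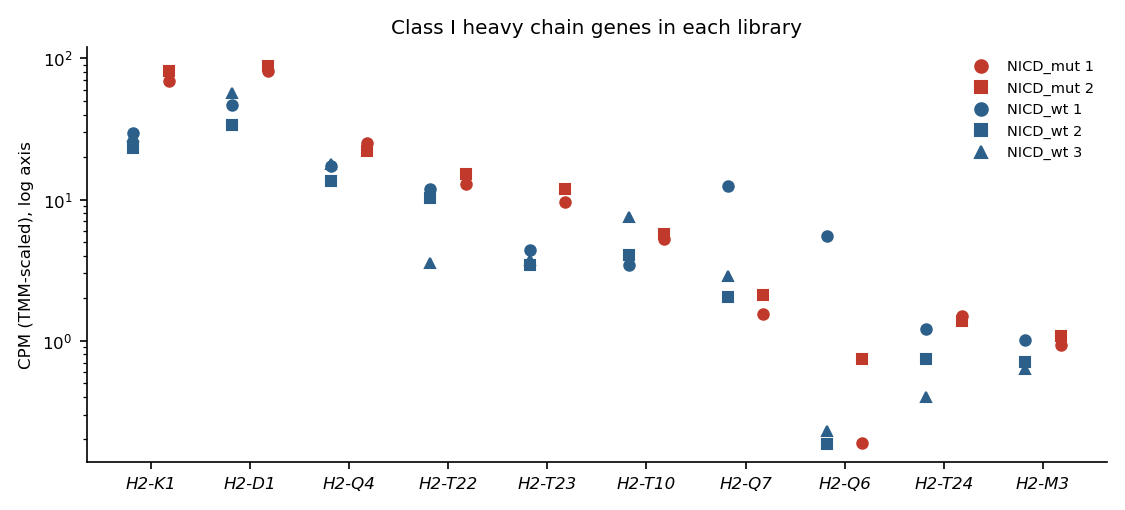
Class I heavy chain genes in each library as CPM on a log axis, NICD_wt to the left and NICD_mut to the right of each gene's tick. H2-Q6 and H2-Q7 are high in NICD_wt 1 alone and H2-T22 is low in NICD_wt 3, while H2-K1 and H2-T23 separate by group.

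Peptide transport and loading genes rose as well. Tapbp, which encodes tapasin (chr17:33915899-33929292, plus strand), was at 82.5 and 80.4 CPM in NICD_mut and at 35.2, 37.1 and 38 CPM in NICD_wt. Its libraries lay closest together within each group among the members with a similar level, and it rose by 1.15 log2 (SE 0.07; edgeR adjusted p = 5.78e-06). Tap1, a subunit of the peptide transporter (chr17:34187553-34197225, plus strand), was at 9.56 and 6.51 CPM against 4.03, 4.68 and 3.62 CPM. Tap1 rose by 0.97 log2 (SE 0.24; edgeR adjusted p = 0.00921), with NICD_mut 1 the higher of the pair. Without NICD_mut 1 it was at 0.66 and did not pass, nor did it pass without NICD_mut 1 and NICD_wt 1 together.

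Tap2, the other subunit (chr17:34203527-34216321, plus strand), was at 6.98 and 4.98 CPM against 4.33, 2.90 and 2.18 CPM. The lowest NICD_mut and the highest NICD_wt library lay close together, and Tap2 rose by 0.93 log2 (SE 0.32; edgeR adjusted p = 0.0403). It did not pass without NICD_mut 1, NICD_wt 2 or NICD_wt 3 (edgeR adjusted p = 0.171, 0.116 and 0.121; 0.66, 0.87 and 0.73 log2). It also missed the threshold by limma on log2(TPM + 0.1) and on log2(TPM + 1) with no filter (adjusted p = 0.0665 and 0.0728).

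The other loading genes were mixed. Of 9 loading and trimming genes 3 rose, 2 fell and 4 did not pass, with a median of -0.07 log2. The tapasin relative Tapbpl rose by 0.84 log2 (SE 0.21) and Erap1, the aminopeptidase that trims peptides, by 0.54 (SE 0.10). The chaperones Canx and Hspa5, which fold many proteins besides class I, changed by -0.25 (SE 0.05) and -0.27 (SE 0.06). By limma on log2(TPM + 1) neither passed, at -0.13 and -0.14 (adjusted p = 0.204 and 0.203). Without NICD_mut 1, Tapbpl was at 0.56 and did not pass (edgeR adjusted p = 0.0709).

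**Figure D3:**
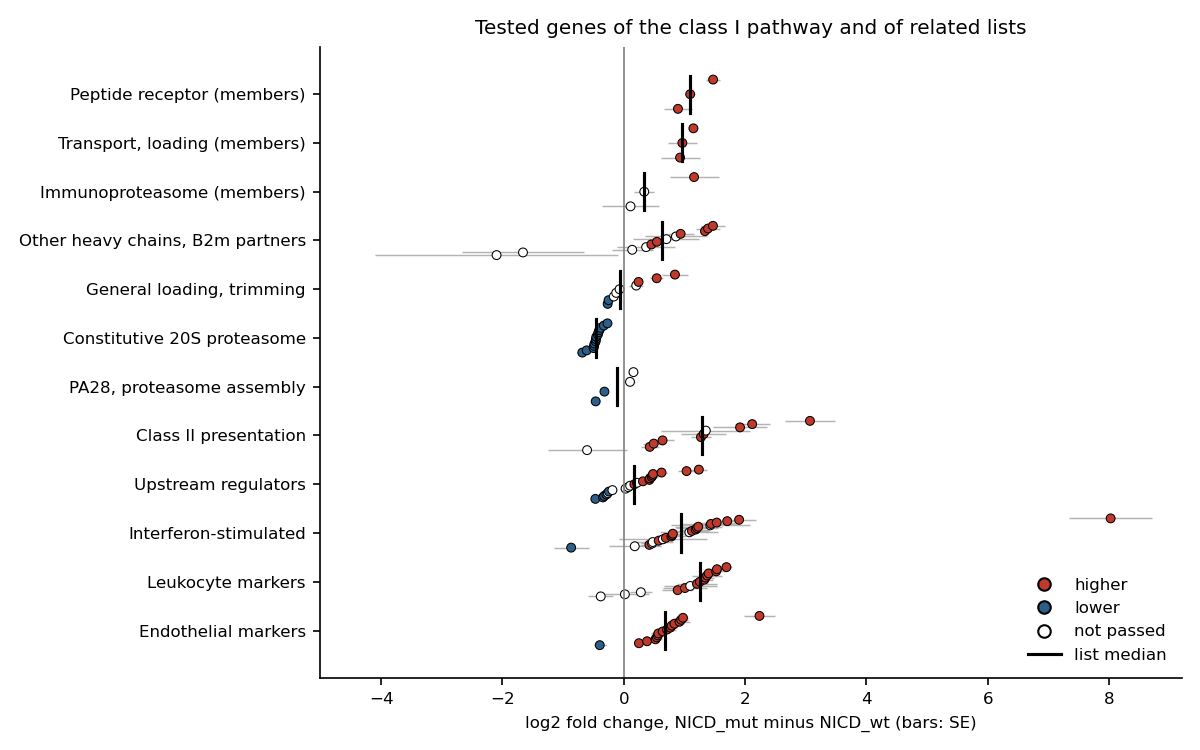
Log2 fold changes (NICD_mut minus NICD_wt, bars SE) of the tested members by role and of related gene lists, filled by the call of the edgeR test, with a black line at each list's median. All 14 constitutive proteasome genes lie below 0, and the peptide receptor and transport members lie near 1.

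Of the 3 immunoproteasome subunits, 1 rose and 2 did not pass. Psmb8 (chr17:34197721-34201454, plus strand) was at 3.0 and 2.61 CPM in NICD_mut and at 1.11, 0.842 and 1.84 CPM in NICD_wt. It rose by 1.16 log2 (SE 0.40; edgeR adjusted p = 0.0411) on only 18 to 64 counts per library. The call was lost without NICD_mut 1, NICD_mut 2, NICD_wt 1 or NICD_wt 2, at 0.93 to 1.25 log2. The edgeR adjusted p was 0.108 without NICD_wt 1 and 0.11 without NICD_wt 2. Without NICD_mut 1 and NICD_wt 1 together the call was lost as well.

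Psmb9 (chr17:34181987-34187764, minus strand) had 18 and 20 counts in NICD_mut and 15, 22 and 13 in NICD_wt. The groups overlapped, and the difference of 0.11 log2 (SE 0.47) did not pass (edgeR adjusted p = 0.863). Psmb10 (chr8:105935735-105938444, minus strand) was at 15.2 and 11.4 CPM against 9.66, 11.1 and 10.9 CPM. Its groups touched without overlapping, and 0.34 log2 (SE 0.17) did not pass (edgeR adjusted p = 0.124); without NICD_mut 2 it was at 0.52 and passed (edgeR adjusted p = 0.0226).

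Tap1 and Psmb9 are transcribed in opposite directions from neighbouring starts, with 225 bases between them by RefSeq, and their promoter windows share 275 of 300 bases. Tap1 rose and Psmb9 did not pass. Whether these 2 changes differ was not tested. The genes overlap at their 5′ ends in GENCODE, and the strand setting of the counting was not given, so reads there cannot be assigned to one of them.

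The constitutive core of the proteasome fell. All 14 genes of the 20S core were lower in NICD_mut and passed, at a median of -0.46 log2 and a range of -0.68 to -0.27; 12 passed by limma on log2(TPM + 1). Among them Psma7 changed by -0.68 (SE 0.09), Psmb5, the catalytic subunit that Psmb8 replaces, by -0.61 (SE 0.08), Psmb7, replaced by Psmb10, by -0.50 (SE 0.07), and Psma1 by -0.49 (SE 0.06). Psmb6, which Psmb9 replaces, changed by -0.45 (SE 0.06). Of the activator and assembly genes, Psme3, a nuclear proteasome activator, changed by -0.46 (SE 0.06) and the assembly factor Pomp by -0.32 (SE 0.06). The interferon-inducible activator subunits Psme1 and Psme2 were at 0.16 (SE 0.08) and 0.10 (SE 0.08) and did not pass. Psme1 passed at 0.28 by limma on log2(TPM + 1) and at 0.23 without NICD_mut 1 (adjusted p = 0.0371 and 0.0449), and Pomp did not pass by limma on log2(TPM + 1) (-0.21, adjusted p = 0.0572).

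Relative to the constitutive subunit it replaces, each immunosubunit was higher in both NICD_mut libraries than in any NICD_wt library. Each of these constitutive subunits was itself lower in NICD_mut, with groups that did not overlap in CPM. Over all genes tested, 32.9% did not overlap in CPM with NICD_mut higher and 34.2% with NICD_mut lower. The share over ratios of other gene pairs was not computed. Psmb8 TPM was 2.13 and 1.66% of Psmb5 TPM in NICD_mut and 0.472, 0.395 and 0.778% in NICD_wt, a difference of 1.84 log2. Psmb10 was at 8.59 and 5.89% of Psmb7 against 3.74, 4.28 and 4.03%, a difference of 0.83 log2. Psmb9 was at 1.04 and 1.17% of Psmb6 against 0.640, 0.953 and 0.657%, a difference of 0.58 log2. Psmb8 itself was at 1.16 log2 (SE 0.40) and Psmb5 at -0.61 (SE 0.08). Psmb10 itself was at 0.34 log2 (SE 0.17), which did not pass, and Psmb7 at -0.50 (SE 0.07). Psmb9 itself was at 0.11 log2 (SE 0.47), on 13 to 22 counts per library with overlapping groups, and Psmb6 at -0.45 (SE 0.06). With 2 libraries against 3, the exact two-sided permutation test cannot go below p = 0.2, which each of the 3 ratios gave (0.267 adjusted over 4 ratios).

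**Figure D4:**
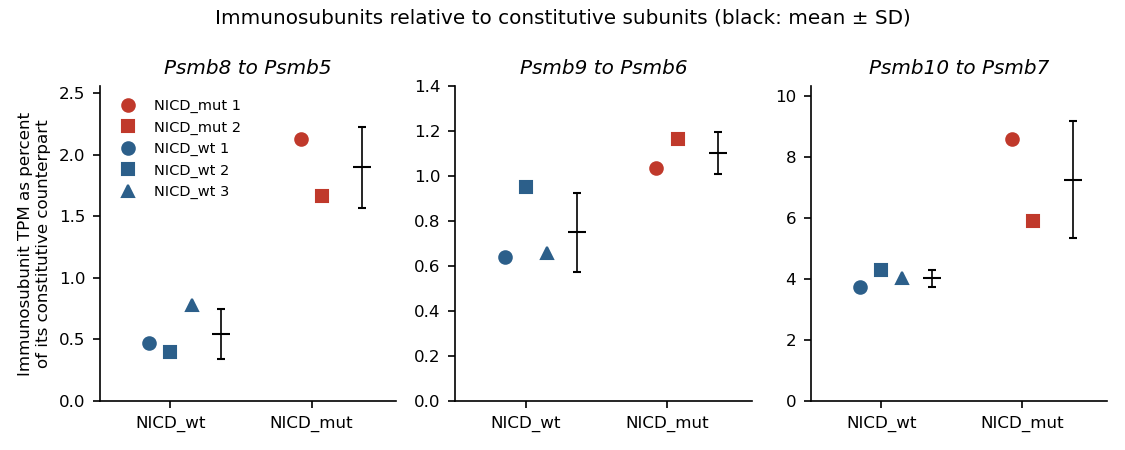
TPM of each immunosubunit as a percent of the constitutive subunit it replaces, by library, with black marks for the mean ± SD. Both NICD_mut libraries lie above every NICD_wt library in each panel, by the least for Psmb9 to Psmb6.

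Nlrc5, the transactivator (chr8:94434356-94527272, plus strand), was the scarcest member. It had 9 and 18 counts in NICD_mut and 2, 1 and 4 in NICD_wt. All libraries were near the limit of detection, with the NICD_mut libraries above the others. The ratio of 27 to 7 counts, scaled by library totals, was 5.41 (exact 95% interval 2.3 to 14.7, for counting error only). With no filter edgeR gave 2.35 log2 (adjusted p = 0.0622). Without NICD_mut 1 Nlrc5 was at 2.81 log2, and it passed the filter there only through NICD_mut 2.

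Of 21 other regulators of class I genes, 10 rose, 5 fell and 6 did not pass, at a median of 0.17 log2. The interferon-regulated factor Irf1, which binds interferon response elements, was at 22.7 and 25.4 CPM against 10.5, 8.89 and 11.3 CPM. It rose by 1.24 log2 (SE 0.14; edgeR adjusted p = 0.000145), with no overlap between the groups. Irf8, a factor of the macrophage lineage, rose by 1.03 (SE 0.14) and the NF-kappaB subunit gene Nfkb1 by 0.43 (SE 0.06). Those that fell, singled out once their values were known, were Nfyb (-0.47, SE 0.08), Rfxank (-0.34, SE 0.12), Nfyc (-0.32, SE 0.07), Creb1 (-0.29, SE 0.06) and Atf1 (-0.24, SE 0.07). The list holds 3 further genes for subunits of the same RFX and NF-Y complexes, and these did not pass: Rfx5 at 0.030 (SE 0.089), Rfxap at -0.26 (SE 0.10) and Nfya at -0.19 (SE 0.08). Rfxap passed without NICD_mut 2 (-0.38, edgeR adjusted p = 0.0173) and Nfya without NICD_wt 1 (-0.25, edgeR adjusted p = 0.0318). Of the 5 that fell, Nfyb alone passed by limma on log2(TPM + 1). Rfxank did not pass when any of the 5 libraries was left out (edgeR adjusted p = 0.0535 to 0.105), and Atf1 did not pass without NICD_wt 2 (edgeR adjusted p = 0.065).

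Ranked by TPM, which is comparable between genes, the members spanned more than 3 orders of magnitude in NICD_wt. B2m led at 128 ± 9.32 TPM (SD, n = 3), followed by H2-D1 at 53.0 ± 9.77, H2-K1 at 31.7 ± 2.15, Tapbp at 22.8 ± 0.922 and Psmb10 at 16.1 ± 1.34. Each of these exceeded the next in every library. Psmb9, Tap1, Tap2 and Psmb8 followed at 2.02 to 2.40 TPM and could not be ordered, since neighbours overlapped, and Nlrc5 was at 0.0533 ± 0.0416. In NICD_mut the first 5 kept this order, from B2m at 298 ± 26.7 TPM (SD, n = 2) to Psmb10 at 22.2 ± 4.82, and Psmb9 at 2.82 ± 0.304 was below Tap1, Psmb8 and Tap2, which overlapped.

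On chromosome 17, 7 members lie between 33915899 and 35267499 (mm10), and 6 of them rose. Of the 67 other tested genes in this interval, 17 rose (25.4%), 9 fell and 41 did not pass, at a median of 0.17 log2; the share that rose is close to the 23% of all genes. Outside the fixed lists it was 12 of 59 genes. H2-K2, a close copy of H2-K1 and chosen after its values were seen, had 65 and 47 counts in NICD_mut and 5, 3 and 4 in NICD_wt, a rise of 3.67 log2 (SE 0.47; edgeR adjusted p = 0.000289). Reads shared with H2-K1 cannot be told apart from its own.

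**Figure D5:**
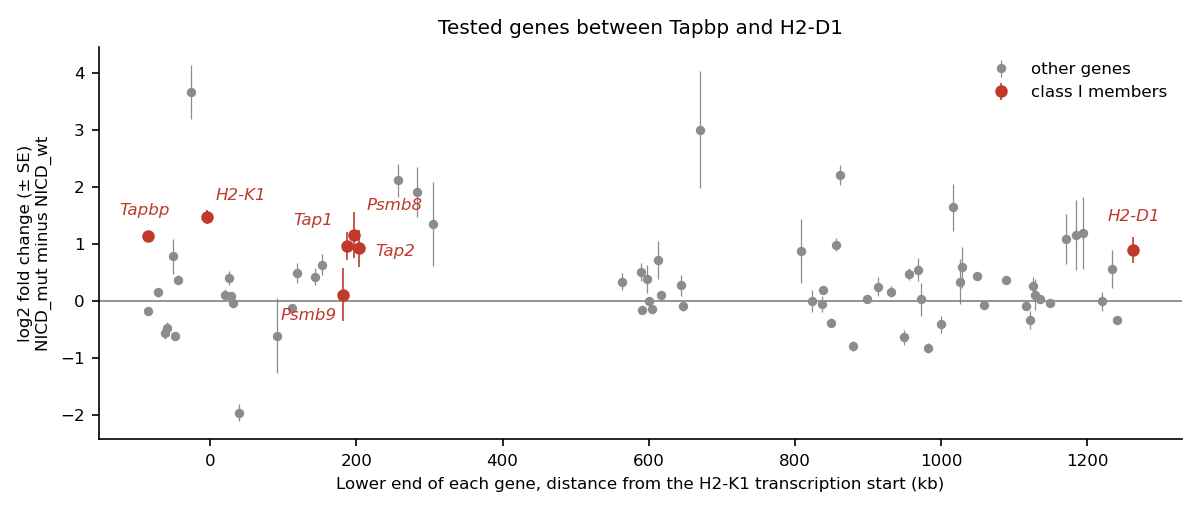
Log2 fold change (± SE) of each tested gene between Tapbp and H2-D1 against its distance from the H2-K1 start, members in red. Of the 67 other genes 17 rose and 9 fell, and Psmb9 lies near 0 beside Tap1, Psmb8 and Tap2.

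Interferon-stimulated genes outside the class I list rose in 15 of 22 tested cases, with 1 lower and 6 not passed, at a median of 0.94 log2. The GTPases Gbp7 and Irgm2 rose by 1.70 (SE 0.23) and 1.90 (SE 0.28), and the RNA sensor Ifih1 by 1.18 (SE 0.22). The chemokine Cxcl10 had 1149 and 414 counts in NICD_mut and 2, 3 and 3 in NICD_wt. It rose by edgeR (8.02 log2, SE 0.68, adjusted p = 0.00113) and did not pass by limma-voom (adjusted p = 0.137). Ifit2 was lower by edgeR (-0.87, SE 0.29, adjusted p = 0.0493) and did not pass under 9 of 16 alternatives. Among class II presentation genes 8 of 10 tested rose, 0 fell and 2 did not pass; without NICD_mut 1 the number was 4, and it was 5 without NICD_wt 1 or NICD_wt 3. Cd74, the invariant chain, rose by 3.07 log2 (SE 0.40), H2-Ab1 by 2.12 (SE 0.29), the protease Ctss by 1.27 (SE 0.17) and H2-Aa by 1.92 (SE 0.44); H2-Aa was at 0.91 and did not pass without NICD_mut 1 (edgeR adjusted p = 0.112).

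Markers of cell types that are rich in class I transcripts were also higher. In whole-kidney libraries more cells of a type and more RNA per cell cannot be told apart. Of 18 leukocyte markers 15 were tested, 11 rose and 4 did not pass, at a median of 1.25 log2. Their summed level was 266 to 288 CPM in NICD_mut and 111 to 129 CPM in NICD_wt. The members summed to 377 to 382 and 163 to 189 CPM. The 4 markers with the smallest edgeR adjusted p were macrophage genes. These, Csf1r, Mrc1, C1qb and Cx3cr1, rose by 1.69 (SE 0.10), 1.54 (SE 0.14), 1.33 (SE 0.14) and 1.25 (SE 0.13). The pan-leukocyte gene Ptprc was at -0.38 (SE 0.21) and did not pass, and at 0.14 by limma on log2(TPM + 1). The other markers that did not pass, all of myeloid cells, were at 0.018 (SE 0.40) to 1.09 (SE 0.44) log2. The T cell gene Cd3e had 0 counts in all 5 libraries.

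Of 16 endothelial markers 15 rose and 1, Ehd3, fell (-0.40, SE 0.10), at a median of 0.68 log2. Kdr, Robo4, Cdh5 and Tek rose by 0.98 (SE 0.08), 0.95 (SE 0.11), 0.83 (SE 0.07) and 0.79 (SE 0.08). The summed endothelial level was 1965 to 2474 CPM against 1163 to 1280 CPM. Erythroid markers summed to 10203 and 11364 CPM in NICD_mut and to 4493 to 5811 CPM in NICD_wt. Most kidney markers fell, as given above. The part of leukocyte, endothelial, erythroid and kidney cell content in the members' differences was not tested.

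The genes whose pattern over the 5 libraries lay nearest to the mean of the members, by Euclidean distance of centred log2 CPM among 14222 genes, were Rbms3, Tnfaip8, Tshz2, Pmepa1 and Bmp1, at distances of 0.0633 to 0.0773. They are given as a description of likeness only.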

How the data were processed

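Bulk RNA-seq of 5 whole-kidney libraries was analysed from a table of estimated counts and a table of TPM, both deposited by the authors with 1 column per library. RSEM, Bowtie2 and mm10 are named in the submitters' processing notes; the versions, the annotation and the strand were not stated there. The deposited estimated counts are whole numbers. The TPM values, as deposited, are scaled by the authors for gene length and depth. Columns were matched to samples by name.

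Counts were filtered with filterByExpr (minimum count 10, minimum total 15), TMM-scaled and tested with the edgeR 4.0.16 quasi-likelihood test in R 4.3.3, NICD_mut against NICD_wt, without covariates, Benjamini-Hochberg adjusted over 15885 genes at 0.05. SE values come from that fit. CPM are TMM-scaled counts. Ratios used exact permutation tests. Scripts were tested on simulated counts. The members, lists and tests were chosen with earlier results of these data known. Named genes were the members, at most 4 from each list, ranked by adjusted p (2 if no member passed), any member alone moving against its list, and the 5 nearest patterns; outside this rule, and after their values were seen, H2-Q6, H2-Q7, H2-T22, H2-T10, H2-K2, Psmb6 (the counterpart of Psmb9), Cd3e, Ptprc, the regulators that fell and their complex partners, and the H2 genes of the closing observations were named, as was H2-M3 for its promoter. Alternatives were other scalings, filters and tests (DESeq2 1.42.0, limma 3.58.1 on counts and on log2(TPM + 1) or log2(TPM + 0.1), TPM of at least 1 in 2 samples), a replicate block and each library left out; the fit without NICD_mut 1 and NICD_wt 1 and the wider heavy chain sum were added after the data were seen. Positions are from GENCODE M21 (mm10) and promoters from RefSeq (GRCm38.p6). Some results are not reported here.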

Additional observations from a re-analysis of the deposited data

How the results depend on the processing

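Members called higher numbered 7 with all libraries and 4 to 6 when a single library was left out. They numbered 5 with the replicate number as a block, 5 without NICD_mut 1 and NICD_wt 1, and 6 or 7 under each other alternative. Under any of these fits 0 fell. Some of these totals include members outside the 7. Nlrc5 is included without NICD_mut 1, alone or together with NICD_wt 1, and Psmb10 is included without NICD_mut 2. The labels do not say that equal numbers mark a shared litter or day, so the numbers were not taken as pairs. Deviations of same-numbered libraries correlated at 0.34 and 0.13, and those of NICD_mut 2 and NICD_wt 3 at 0.24. With 2 NICD_mut libraries, each correlation of NICD_mut 1 is that of NICD_mut 2 with the opposite sign. The block took the genes called from 7583 to 5535. The summed heavy chains ranged from 0.78 to 1.03 log2 over libraries left out and rose by 0.94 with H2-K2, H2-Bl, H2-Q5 and H2-T-ps added. The heavy chain to B2m ratio changed sign, from -0.052 to 0.21 log2, over libraries left out. Over libraries left out Psmb9 ranged from -0.013 (without NICD_mut 2) to 0.28 log2 and H2-T10, at 0.14 with all libraries, from -0.070 (without NICD_wt 1) to 0.55. Without NICD_mut 1 and NICD_wt 1 H2-T10 was at -0.012 and Rfx5 at -0.048; over libraries left out Rfx5 ranged from -0.015 (without NICD_wt 1) to 0.062. Ptprc was at 0.14 and 0.18 by limma on log2(TPM + 1) and log2(TPM + 0.1), and H2-Q6 at 1.80 without NICD_mut 1 and NICD_wt 1; the cause was not tested. With the block, Tap1 and Tap2 did not pass (edgeR adjusted p = 0.0664 and 0.101). List counts that moved by over 1.5 times included class II genes that rose (8, and 5 with the block), regulators that fell (5, 3 with the block and 1 on TPM), loading genes that rose (3, and 1 with the block) or fell (2, and 0 with the block and on TPM), activator genes that fell (2, and 1 on TPM), and the endothelial gene that fell, Ehd3 (1, and 0 on TPM). Genes called lower numbered 3934, and 2523 by limma on log2(TPM + 1). Of 69 named and tested genes, 42 kept their call and direction under every alternative that gave a value. Depth limits Nlrc5, Psmb8 and Psmb9 most.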

Other observations

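Class I and class II genes outside the fixed lists were mostly silent: H2-L, H2-M1, H2-M9, H2-M11, H2-T9 and 5 of the 6 H2-M10 genes had 0 counts in all 5 libraries. H2-Bl had 20 and 9 counts in NICD_mut and 1, 4 and 4 in NICD_wt. H2-Ea-ps, a class II pseudogene, had 32 counts in NICD_mut 1, 9 in NICD_wt 2, 2 in NICD_mut 2 and 0 in NICD_wt 1 and 3, so it differed within both groups. H2-Q5 had 11 counts in NICD_wt 1, the library with high H2-Q6 and H2-Q7, and 0 to 2 in each of the other 4 libraries.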
